A study of Mus musculus with 8 samples.

Results

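The 8 genes described here encode the mouse enzymes that place, copy and remove methyl groups on cytosine in DNA, and were chosen by name: *Dnmt1*, *Dnmt3a*, *Dnmt3b*, *Dnmt3l*, *Uhrf1*, *Tet1*, *Tet2* and *Tet3*, 8 of the 55487 genes in the count table. They were followed in bulk RNA-seq of long-term hematopoietic stem cells (LT-HSCs), the cells at the top of the blood hierarchy, from *IκBα* (*Nfkbia*) WT, HET and KO embryos. IκBα is the inhibitor that holds NF-κB in the cytoplasm. The KO allele is a germline deletion, so every tissue of the embryo carried it, and the embryos came from HET matings, some of which also carried a Gfi1:tomato reporter allele. Each of the 8 samples held 500 cells sorted as LSK CD48- CD150+ from fetal liver (FL) at E14.5, with 3 WT, 3 HET and 2 KO samples, and a further KO sample had been discarded for its sequencing quality. WT1, WT2 and HET1 were labeled male and total RNA, whereas WT3, HET2, HET3, KO1 and KO2 were labeled female and polyA RNA. The published methods give a common total RNA extraction and low-input mRNA library protocol for all samples, so that the RNA label does not match them. Sex and RNA label cannot be told apart, and the KO samples have only female references.

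Methylation of cytosine at CpG sites is copied to the new DNA strand at each cell division by DNMT1, which is brought to hemimethylated sites by UHRF1. DNMT3A and DNMT3B set new methylation, and DNMT3L is a relative without catalytic activity that assists them, mainly in germ cells. TET1, TET2 and TET3 oxidize 5-methylcytosine to 5-hydroxymethylcytosine and further, after which the base excision enzymes or replication restore unmodified cytosine. In the blood system DNMT3A and TET2 are known for their part in HSC self-renewal and for their mutations in clonal hematopoiesis, and DNMT1 is needed to maintain HSCs.

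Before the genes are described, the libraries themselves must be compared. Between 17895973 and 21720972 reads were counted on genes, and counts were expressed as counts scaled to a common library size (counts per 1000000 reads, CPM) after TMM scaling. *Nfkbia* had 1 read in KO1 and none in KO2, against 14.4 to 67.7 CPM in the 6 others. WT3 and HET3 stood apart. The summed level of 7 LT-HSC markers (*Procr*, *Slamf1*, *Kit*, *Ly6a*, *Mecom*, *Hlf* and *Ptprc*) was 226 CPM in WT3 and 197 CPM in HET3, 451 and 398 CPM in HET1 and HET2, 740 and 1074 CPM in KO2 and KO1, and 1229 and 1302 CPM in WT1 and WT2. *Ly6a*, which encodes the SCA1 antigen used in the sort, had no read in HET3, the only marker at 0 in any library. *Kit*, also used in the sort, was the only 1 of the 7 that was not lowest in WT3 and HET3. It had 148 CPM in WT3 and 170 CPM in HET3, against 135 (HET1) to 231 CPM (KO1) in the others, and made up most of the HET3 sum. The summed level of 8 hepatocyte genes was highest in the same libraries, with 1483 CPM in WT3 and 753 CPM in HET3 against 49.8 to 299 CPM in the others, and *Fgb*, *Ttr* or *Serpina1a* were at 0 reads in WT1, WT2 and KO1. The erythroid sum was 14169 CPM in HET1 and between 646 and 5014 CPM elsewhere. In bulk samples fewer cells of a type and less RNA per cell cannot be told apart. The part of these differences in the results below was not tested, and fold changes of *Dnmt3a*, *Dnmt3b* and *Tet1* are given with and without WT3 and HET3.

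Levels of different genes were compared as CPM per kilobase of merged exons, and their order and the shares below depend on these lengths. *Dnmt3b* had the highest median of the 8 libraries (41.9, range 15.7 to 68.3), followed by *Uhrf1* (24.8, range 20.4 to 25.8), *Dnmt1* (19.6, range 17.6 to 22.3), *Dnmt3a* (5.76, range 1.89 to 11.4), *Tet3* (2.99, range 2.54 to 3.40), *Tet1* (2.52, range 0.353 to 4.40) and *Tet2* (0.776, range 0.496 to 1.05). The *Dnmt3b* and *Uhrf1* ranges overlapped, and *Dnmt3b* was above *Uhrf1* in 6 of 8 libraries, the exceptions being WT3 and HET3. *Uhrf1* was above *Dnmt1* in 8 of 8 libraries, although their ranges overlapped. With merged exons of 4259 bp for *Uhrf1* and 7377 bp for *Dnmt1*, this order rests on the lengths. In CPM not divided by length *Uhrf1* was below *Dnmt1* in every library, at 0.630 to 0.781 times. *Dnmt1* was above *Dnmt3a* without overlap, whereas *Dnmt3a*, *Tet3* and *Tet1* could not be put in a fixed order: *Dnmt3a* exceeded *Tet3* in 5 of 8 libraries and *Tet3* exceeded *Tet1* in 5 of 8. *Tet1* was above *Tet2* in 7 of 8 libraries. Among 20574 genes with a length, the median level of *Dnmt3b* lay above that of 91.3% of genes and that of *Tet2* above 44.8%.

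*Dnmt3l* was at the limit of detection. It had 10 reads in WT2 (0.418 CPM), 1 read in HET3 (0.0593 CPM) and none in the other 6 libraries. The floor used here, 3 reads, corresponds to 0.138 to 0.168 CPM before TMM scaling, whereas the levels are given after it. No fold change was given for it. Its exons share 67 bp with those of *Aire* on the opposite strand, which had 2 reads.

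The makeup of each enzyme family differed between libraries. Of the summed CPM per kilobase of the DNA methyltransferases, *Dnmt3b* made up 65.7% to 68.8% in WT1, WT2 and KO1, 63.0% in KO2, 57.9% and 56.3% in HET1 and HET2, and 44.0% and 44.6% in WT3 and HET3. *Dnmt1* took the opposite course, from 20.2% in KO1 to 50.0% in HET3. Among the TET enzymes *Tet1* was the leading transcript in WT1, WT2 and KO1 (51.3% to 55.1%), and *Tet3* in the other 5 libraries, where it reached 76.7% in HET3. The share of *Tet2* stayed between 9.73% and 15.2%. The libraries with the lowest *Dnmt3b* and *Tet1* shares were thus the same pair with the lowest LT-HSC marker sum.

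**Figure D1:**
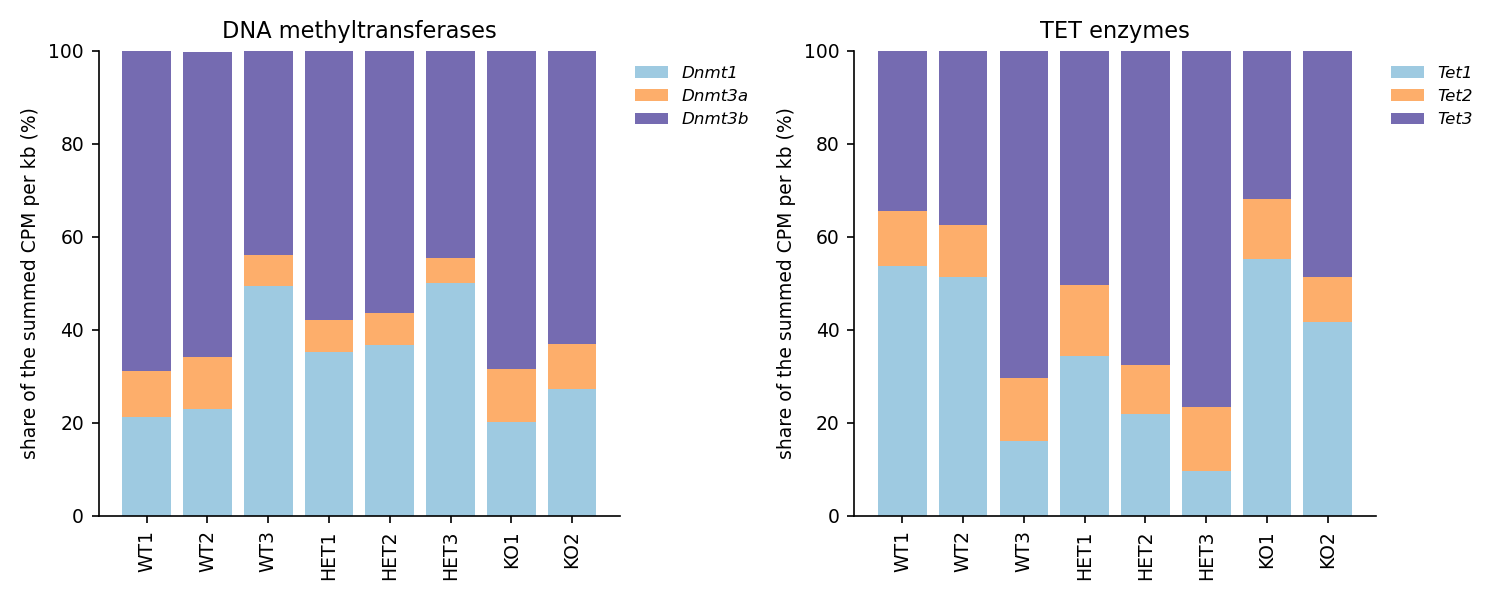
Share (%) of each gene in the summed CPM per kilobase of exon of the DNA methyltransferases (left) and the TET enzymes (right) in each of the 8 libraries; *Dnmt3l*, at most 0.140 CPM per kilobase, is not drawn. *Dnmt3b* falls from 68.8% in WT1 to 44.0% in WT3, and *Tet1* from 55.1% in KO1 to 9.69% in HET3.

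The promoters of the genes whose levels moved together across the libraries, and of the pair that stayed level, are shown as reference sequence. RefSeq (GRCm38.p6) windows of 250 bases before to 50 bases after a transcription start were found for all 8 genes, 15 windows in all, and are printed 5′ to 3′ on the gene's strand. Capitals mark matches, on either strand, to the κB consensus, to an E2F site (TTTCCCGC, TTTCGCGC, TTTGCCGC or TTTGGCGC) or to the retinoid receptor motif AGGTCA. The *Dnmt3a* window at chr12:3806730-3807029 (plus strand), the *Dnmt3b* window at chr2:153649199-153649498 (plus strand) and the *Tet1* window at chr10:62887275-62887574 (minus strand) belong to the genes that varied. The *Dnmt1* window at chr9:20952574-20952873 (minus strand) and the *Uhrf1* window at chr17:56304063-56304362 (plus strand) belong to the pair that did not, and were taken among 3 and 2 windows because they hold E2F matches.
Dnmt3a: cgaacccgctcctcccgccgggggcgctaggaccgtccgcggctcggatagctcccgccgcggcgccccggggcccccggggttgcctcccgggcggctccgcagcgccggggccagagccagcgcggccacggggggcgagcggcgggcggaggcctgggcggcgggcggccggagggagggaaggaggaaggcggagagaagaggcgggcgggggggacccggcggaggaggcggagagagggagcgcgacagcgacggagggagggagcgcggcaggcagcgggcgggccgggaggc
Dnmt3b: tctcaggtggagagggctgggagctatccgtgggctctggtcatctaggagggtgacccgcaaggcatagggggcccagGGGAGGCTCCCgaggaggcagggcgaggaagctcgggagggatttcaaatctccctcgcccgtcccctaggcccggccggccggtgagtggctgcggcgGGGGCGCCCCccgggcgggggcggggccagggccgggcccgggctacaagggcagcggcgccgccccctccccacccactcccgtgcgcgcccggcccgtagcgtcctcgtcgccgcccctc
Tet1: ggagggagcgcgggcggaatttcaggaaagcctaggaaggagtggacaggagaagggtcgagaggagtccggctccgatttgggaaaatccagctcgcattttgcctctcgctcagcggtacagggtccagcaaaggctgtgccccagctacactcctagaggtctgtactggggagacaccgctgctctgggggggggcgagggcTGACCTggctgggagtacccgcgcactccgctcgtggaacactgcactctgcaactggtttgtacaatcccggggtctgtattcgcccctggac
Dnmt1: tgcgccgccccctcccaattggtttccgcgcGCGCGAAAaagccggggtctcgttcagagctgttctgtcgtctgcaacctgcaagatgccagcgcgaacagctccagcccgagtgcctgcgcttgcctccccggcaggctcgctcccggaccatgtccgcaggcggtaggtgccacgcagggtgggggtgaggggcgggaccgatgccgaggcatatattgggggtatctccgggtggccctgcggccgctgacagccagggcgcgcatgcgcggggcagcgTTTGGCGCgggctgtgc
Uhrf1: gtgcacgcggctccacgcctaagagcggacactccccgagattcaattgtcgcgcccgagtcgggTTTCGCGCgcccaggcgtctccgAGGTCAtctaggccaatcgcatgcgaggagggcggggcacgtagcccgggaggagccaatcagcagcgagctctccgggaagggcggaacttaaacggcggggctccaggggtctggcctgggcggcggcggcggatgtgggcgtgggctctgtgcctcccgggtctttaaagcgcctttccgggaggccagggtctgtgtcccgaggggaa

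E2F sites, the motif of the factors that switch on replication genes, were found in 1 of the 3 *Dnmt1* windows (2 matches) and 1 of the 2 *Uhrf1* windows (1 match), and in none of the other 13, against 2.26% of all 32851 promoter windows. The κB consensus was found only in the *Dnmt3b* window, at 2 places that each match on both strands, against 8.46% of all windows. The AGGTCA motif was found in the *Tet1* window, in 1 *Uhrf1* window and in 1 *Dnmt3a* window that is not printed, against 16.3% of all windows. CpG content varied. The *Tet2* window held 57 CpG sites, more than 99.8% of all windows, and the printed *Dnmt3a*, *Dnmt1*, *Uhrf1*, *Dnmt3b* and *Tet1* windows held 46, 33, 33, 30 and 17, against a median of 7. The 3 *Dnmt3l* windows held 3 to 6. The shares over all windows were not matched for CpG content, although every E2F site and 1 of the κB places contain a CpG. These matches are descriptions of sequence and not of binding.

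The *de novo* methyltransferases varied strongly and together. *Dnmt3a* (chr12:3806007-3914443) had 154, 159 and 41.2 CPM in WT1, WT2 and WT3, 71.1, 56.3 and 31.4 CPM in HET1, HET2 and HET3, and 190 and 120 CPM in KO1 and KO2. The KO samples lay above the 3 female references, but KO2 lay below WT1 and WT2, so that KO overlapped the pool of 6 references. *Dnmt3b* (chr2:153649450-153687730) had 323, 288 and 84.7 CPM in the WT samples, 187, 141 and 80.1 CPM in the HET samples, and 349 and 242 CPM in the KO samples, in the same order of replicates. The order of the libraries was again HET3, WT3, HET2, HET1 and KO2 from the lowest, with WT1, WT2 and KO1 on top. In the fit with sex, in which WT and HET were the reference, the log2 fold change of KO was 1.85 ± 0.38 (SE) for *Dnmt3a* and 1.53 ± 0.32 for *Dnmt3b*, each with an edgeR adjusted *p*-value of 0.148. Neither passed the threshold of 0.05.

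Among the TET enzymes, *Tet1* varied most and *Tet3* hardly at all. *Tet1* (chr10:62804570-62908996) had 63.7, 64.4 and 10.4 CPM in WT1, WT2 and WT3, 35.4, 17.0 and 5.46 CPM in HET1, HET2 and HET3, and 68.0 and 42.5 CPM in KO1 and KO2. Its highest library was 12.5 times its lowest, against 6.05 times for *Dnmt3a* and 4.35 times for *Dnmt3b*, and KO was separated only from the female references. The KO log2 fold change of *Tet1* was 2.33 ± 0.46 (SE), with an adjusted *p*-value of 0.148. *Tet2* (chr3:133463679-133545139) had 15.3, 15.5 and 9.58 CPM in the WT samples, 17.1, 9.13 and 8.36 CPM in the HET samples, and 17.7 and 10.8 CPM in the KO samples. The 3 male samples lay within 1.11 times of each other and above all female references, whereas the KO samples bracketed the males. The KO log2 fold change of *Tet2* was 0.66 ± 0.28, with an adjusted *p*-value of 0.191. It was 0.26 without KO1, 0.97 without KO2 and 0.61 without WT3 and HET3. *Tet3* (chr6:83362373-83459084) had 44.2, 50.8 and 49.2 CPM in the WT samples, 56.2, 56.8 and 46.7 CPM in the HET samples, and 42.4 and 53.4 CPM in the KO samples. Its groups overlapped throughout, and its KO log2 fold change was -0.09 ± 0.19, with a 95% interval from -0.52 to 0.35.

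The maintenance pair was nearly level. *Dnmt1* (chr9:20907209-20959888) had 144, 146 and 138 CPM in WT1, WT2 and WT3, 164, 133 and 130 CPM in HET1, HET2 and HET3, and 149 and 151 CPM in KO1 and KO2. *Uhrf1* (chr17:56303321-56323486) had 102, 108 and 86.7 CPM in the WT samples, 110, 104 and 97.8 CPM in the HET samples, and 108 and 107 CPM in the KO samples. The whole range over 8 libraries was 1.26 times for *Dnmt1* and 1.27 times for *Uhrf1*, and HET1 was the highest library for both. The KO samples lay above the 3 female references in both genes, by a small margin. The KO log2 fold changes were 0.17 ± 0.13 (95% interval -0.14 to 0.48) for *Dnmt1* and 0.16 ± 0.14 (-0.17 to 0.48) for *Uhrf1*, close to the median of all genes, 0.13, and far from those of *Dnmt3a*, *Dnmt3b* and *Tet1*.

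**Figure D2:**
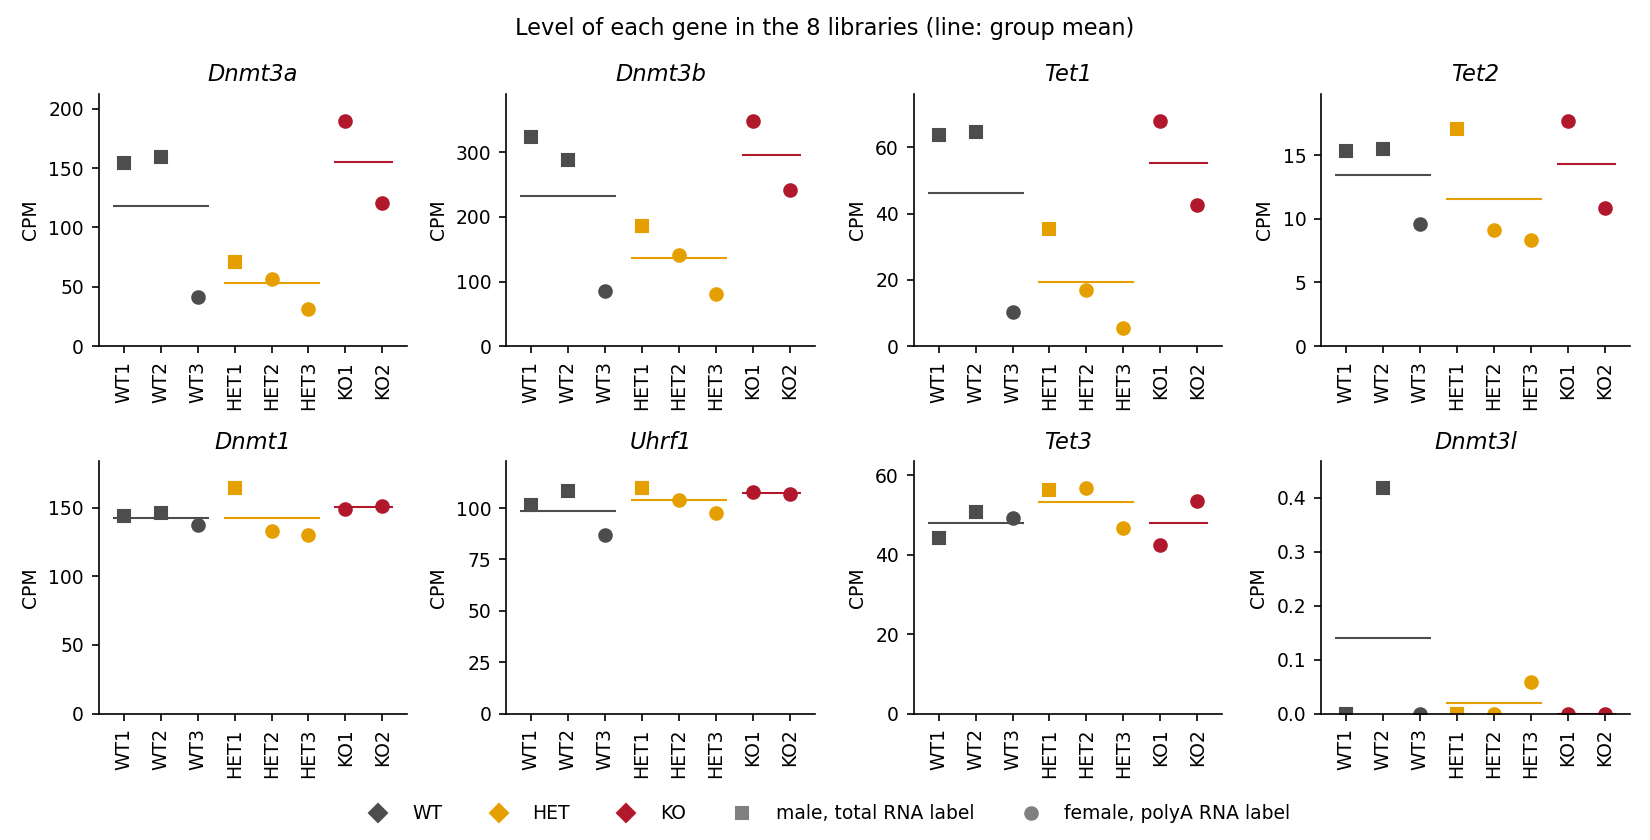
CPM of each gene (y axis, from 0) in the 8 libraries (x axis), colored by genotype, with squares for the male, total RNA label and circles for the female, polyA RNA label; lines are group means. *Dnmt3a*, *Dnmt3b* and *Tet1* are low in WT3 and HET3 (10.4 and 5.46 CPM for *Tet1*), whereas *Dnmt1*, *Uhrf1* and *Tet3* stay within 1.34 times over all libraries.

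To ask whether loss of *IκBα* was accompanied by a change in these genes, KO was compared with WT and HET over all 20610 genes that had at least 10 reads. A call needed an adjusted *p*-value under 0.05 and a log2 fold change beyond 1 in either direction. edgeR called none of the 8 genes and none of the 20610 (0%), although 5196 genes had an unadjusted *p*-value under 0.05, of which 3242 were higher and 1954 lower in KO. With library size scaling in place of TMM these were 4581 and 956, and the median log2 fold change of all genes moved from 0.13 to 0.41. Under that scaling *Tet3* turned from -0.09 to 0.18, below the median of all genes under both, and *Dnmt1* and *Uhrf1* were at 0.45 and 0.44 with unadjusted *p*-values of 0.00511 and 0.0195. At an unadjusted *p*-value under 0.05, *Dnmt3a*, *Dnmt3b*, *Tet1* and *Tet2* were higher in KO, 4 of 8 members against 15.7% of all genes. DESeq2, fitted with the same covariate, called 1825 genes (8.85%), and *Dnmt3a* (adjusted *p*-value 0.00301), *Dnmt3b* (0.00436) and *Tet1* (0.00101) were among them, 3 of 8 members. With apeglm shrinkage it called 1463 genes (7.10%) and the same 3 members, with log2 fold changes of 1.62, 1.33 and 2.09.

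The edgeR outcome depended on the libraries included, and DESeq2 was not fitted with samples left out. For the fits below that called genes, the share of all genes called was not computed. Without HET2, which leaves WT3 and HET3 as the female references, edgeR called 703 genes. *Dnmt3a*, *Dnmt3b* and *Tet1* then had adjusted *p*-values of 0.0457, 0.0412 and 0.0412. With WT alone as the reference, WT3 was the only female reference, so that KO was set against it. The log2 fold changes of the 3 genes were then 1.92, 1.81 and 2.42. Without HET1 edgeR called 8 genes, none of them a member, and without the filter on low counts 1106 genes, with *Dnmt3a*, *Dnmt3b* and *Tet1* among them. Without KO1 the adjusted *p*-value of each was 0.592, with log2 fold changes of 1.49, 1.24 and 1.96. Without WT3 and HET3, which leaves HET2 as the only female reference, the log2 fold changes were 1.43 ± 0.56, 1.03 ± 0.42 and 1.67 ± 0.50, each with an adjusted *p*-value of 0.683, and no gene was called, with 1048 genes at an unadjusted *p*-value under 0.05. *Dnmt3a*, *Dnmt3b* and *Tet1* were among the 838 genes that were higher at that level (4.07%). In the female samples alone, 2 KO against 3 references, the log2 fold changes were 1.80 ± 0.30, 1.48 ± 0.29 and 2.28 ± 0.47, with an adjusted *p*-value of 0.119 each. Without the sex term they were 0.86 ± 0.59, 0.68 ± 0.52 and 0.76 ± 0.81, with 0.978.

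The separation of the samples was read directly as well. Both KO samples lay above all 3 female references in 6 of the 7 members compared, the exception being *Tet3*, and 27.1% of all genes did so. Both KO samples lay above all 6 references in none of the 7, against 3.05% of all genes. The exact two-sided permutation test of log2 CPM for 2 KO samples against the 6 others gave *p*-values of 0.25 for *Dnmt3b*, 0.286 for *Dnmt3a* and *Tet1*, 0.357 for *Dnmt1*, 0.464 for *Tet2* and *Uhrf1*, and 0.571 for *Tet3*. The smallest *p*-value this design allows is 0.0714, so that it could not have passed 0.05.

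**Figure D3:**
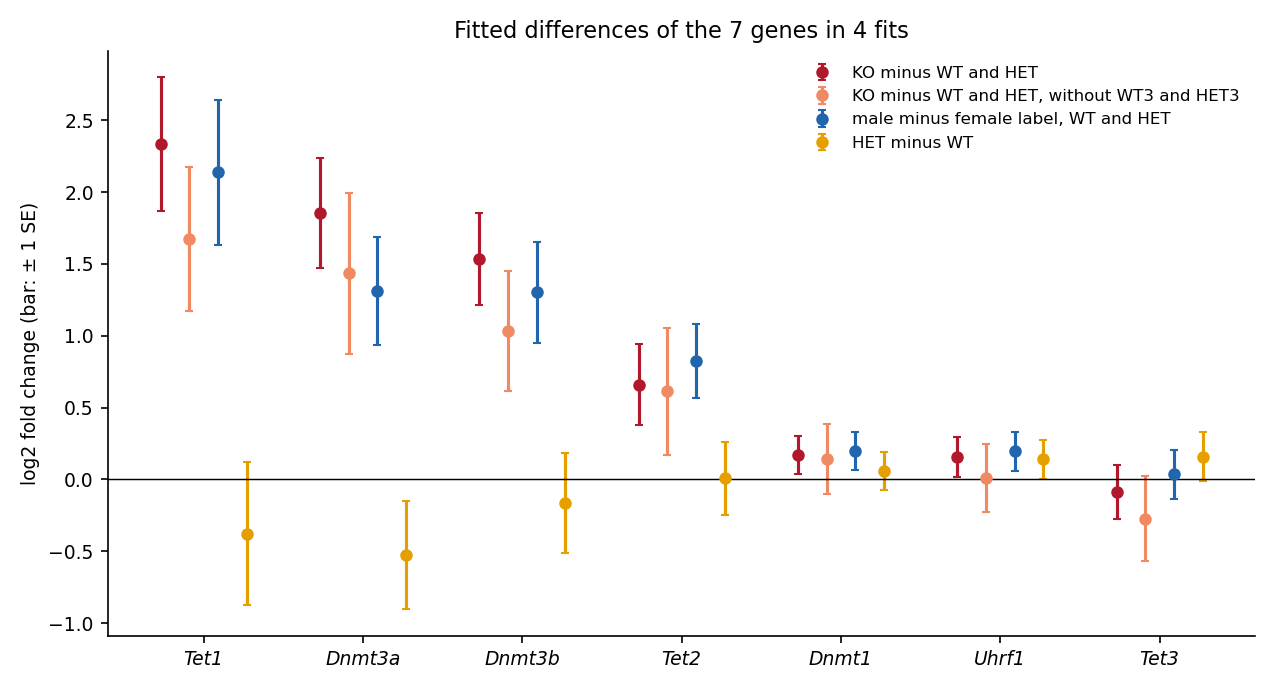
Log2 fold changes (y axis, points) with 1 SE (bars) of 7 genes (x axis) in the KO comparison with and without WT3 and HET3, in the comparison of male with female label among WT and HET, and in HET against WT. *Tet1*, *Dnmt3a* and *Dnmt3b* lie at 1.53 to 2.33 in the KO comparison and at 1.30 to 2.14 in the label comparison, whereas *Dnmt1*, *Uhrf1* and *Tet3* lie between -0.27 and 0.20 in all 4.

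Next, the 3 male (total RNA) samples were compared with the 3 female (polyA RNA) samples among WT and HET, with genotype in the model. The male log2 fold changes were 2.14 ± 0.50 (SE) for *Tet1*, 1.31 ± 0.38 for *Dnmt3a*, 1.30 ± 0.35 for *Dnmt3b* and 0.83 ± 0.26 for *Tet2*, with edgeR adjusted *p*-values of 0.174 to 0.175. They were 0.20 ± 0.13 for *Dnmt1*, 0.20 ± 0.14 for *Uhrf1* and 0.04 ± 0.17 for *Tet3*. None of the members was called, and edgeR called 2 of 19542 genes (0.0102%), while 4 of 8 members were higher at an unadjusted *p*-value under 0.05, against 11.1% of genes. DESeq2 called 1820 of 19542 genes, including *Dnmt3a*, *Dnmt3b* and *Tet1* (adjusted *p*-values 0.0117, 0.00836 and 0.00172). The male samples lay above the female references without overlap in *Dnmt1*, *Dnmt3a*, *Dnmt3b*, *Tet1* and *Tet2*, 5 of 7 members against 21.1% of all genes. The exact permutation *p*-value for each of these 5 genes was 0.1, the smallest that 3 against 3 allows. WT3 and HET3 are female references in this comparison and in the KO comparison, so that both share the same low samples. Without HET2 edgeR called 2914 genes, *Dnmt3a*, *Dnmt3b* and *Tet1* among them, and the share of all genes was not computed for this fit. Without HET1 the label value rested on WT1 and WT2 against WT3. When WT3 and HET3 were left out, it rested on HET1 against HET2 alone. The male log2 fold changes were then 1.06 for *Tet1*, 0.40 for *Dnmt3b*, 0.34 for *Dnmt3a* and 0.90 for *Tet2*, and that of *Tet3* turned from 0.04 to -0.01. Without WT3 alone those of *Tet1*, *Dnmt3b* and *Dnmt3a* were 1.65, 0.75 and 0.70.

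HET was compared with WT over the same 6 samples with sex as a covariate. The fitted log2 values were -0.53 ± 0.37 (SE) for *Dnmt3a*, -0.38 ± 0.50 for *Tet1*, -0.16 ± 0.35 for *Dnmt3b*, 0.16 ± 0.17 for *Tet3*, 0.14 ± 0.14 for *Uhrf1*, 0.06 ± 0.13 for *Dnmt1* and 0.01 ± 0.26 for *Tet2*. edgeR called no gene (0% of 19542), with 754 genes (3.86%) at an unadjusted *p*-value under 0.05 and none of the members among them, and DESeq2 called 52. The fitted values depended on the libraries included. Without WT3 and HET3, HET2 was the only female sample. With sex in the model the HET value then rested on HET1 alone against WT1 and WT2. The log2 fold changes were -1.14 for *Dnmt3a*, -0.71 for *Dnmt3b* and -0.85 for *Tet1*. WT1 and WT2 had 154 and 159 CPM of *Dnmt3a*, and HET1 and HET2 had 71.1 and 56.3 CPM. Without HET1 the fitted values of *Dnmt3a*, *Dnmt3b* and *Tet1* turned to 0.09, 0.38 and 0.12. A term for a different HET effect in males and females was not past the threshold for any member (adjusted *p*-values 0.470 to 0.863), nor for any gene.

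Ratios within a library do not depend on its scaling. *Dnmt3b* had 2.10, 1.81 and 2.06 times the CPM of *Dnmt3a* in WT1, WT2 and WT3, 2.62, 2.51 and 2.55 times in HET1, HET2 and HET3, and 1.84 and 2.01 times in KO1 and KO2. All 3 HET samples lay above the 5 WT and KO samples, although the level of both genes differed more than 2-fold among the HET samples. The log2 difference of HET from WT was 0.37, with an exact permutation *p*-value of 0.1, the smallest that 3 against 3 allows, and that of KO from the 6 others was -0.23 (exact *p* = 0.214). *Tet1* had 4.15, 4.16 and 1.08 times the CPM of *Tet2* in the WT samples, 2.07, 1.86 and 0.652 times in the HET samples, and 3.84 and 3.93 times in the KO samples. It followed the libraries, with the lowest values in WT3 and HET3, and KO overlapped WT (exact *p* = 0.321 against the 6 others). *Tet3* had between 2.39 (KO1) and 6.22 (HET2) times the CPM of *Tet2*, with the males at 2.88 to 3.29 and the female references at 5.13 to 6.22. *Uhrf1* had between 0.630 and 0.781 times the CPM of *Dnmt1* in all libraries, with means of 0.713 in KO and in the 6 others (exact *p* = 1).

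The profiles of the members were compared by the root mean square difference of log2 CPM, centered on each gene's mean over the 8 libraries. This measure is small between any 2 genes that vary little, so it does not show that such genes share a profile. Around their own means *Dnmt1*, *Uhrf1* and *Tet3* varied by a root mean square of 0.10, 0.10 and 0.15. *Dnmt1* and *Uhrf1* were nearest to each other (0.09), and *Tet3* was 0.16 from both. *Dnmt3a* and *Dnmt3b* were 0.20 apart, and *Tet1* was 0.44 from *Dnmt3a* and 1.30 from *Tet3*. *Tet2* lay between, 0.34 from *Dnmt1* and 0.50 from *Dnmt3b*. Among 10092 other genes with a mean of at least 5 CPM, the nearest to *Dnmt3a* were *Atp13a2* (0.12) and *Zdhhc1* (0.12), the nearest to *Dnmt3b* were *Repin1* (0.07) and *Triobp* (0.09), and the nearest to *Tet1* were *Smad1* (0.12), a mediator of BMP signals, and *Plekho1* (0.16). *Smad1* had 41.8, 50.7 and 6.51 CPM in the WT samples, 22.2, 11.5 and 3.56 CPM in the HET samples, and 46.8 and 33.2 CPM in the KO samples. It showed the same low values in WT3 and HET3. The nearest to *Tet2* were *Zeb1* (0.11), a transcriptional repressor, and *Evi5l* (0.12), to *Dnmt1* *Jmjd1c* (0.06) and *March7* (0.06), to *Uhrf1* *Ppp2r5a* (0.03) and *Emc10* (0.05), and to *Tet3* *Dyrk1a* (0.06), a protein kinase, and *Setd1b* (0.07), a histone H3K4 methyltransferase.

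**Figure D4:**
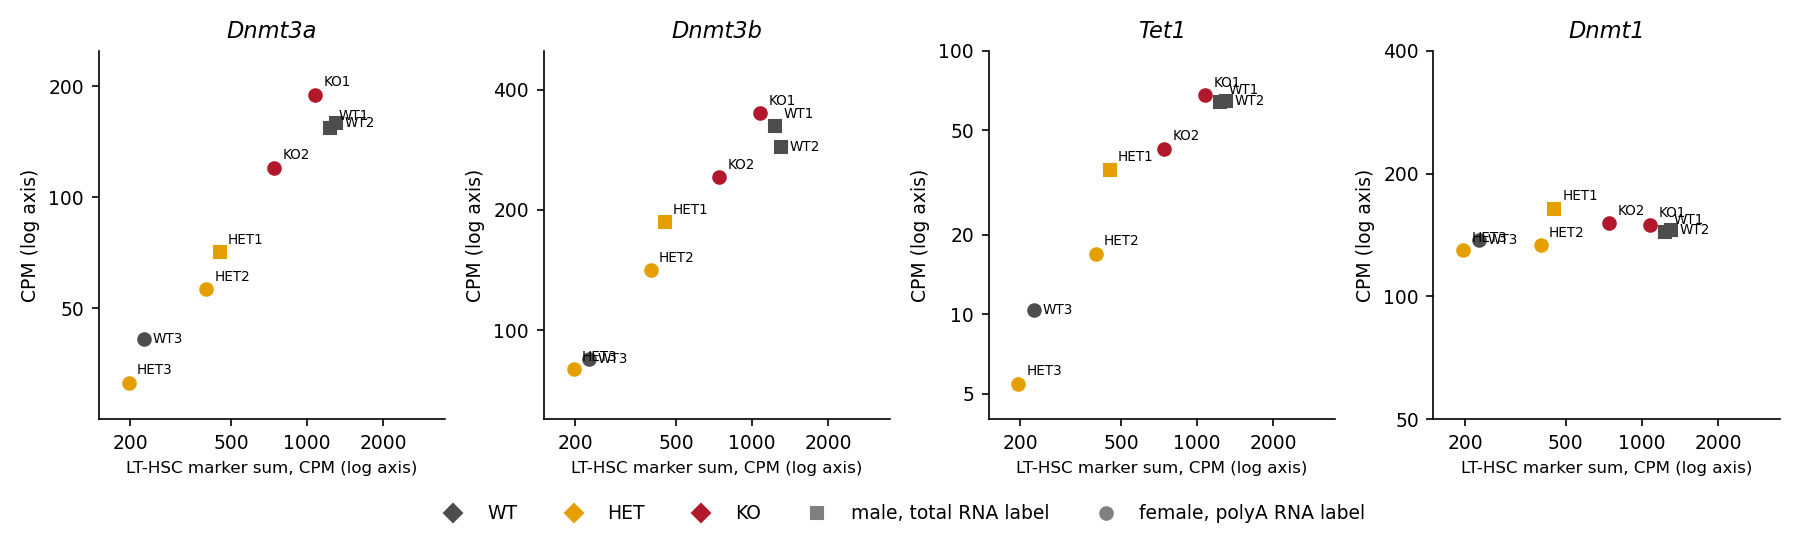
CPM of *Dnmt3a*, *Dnmt3b*, *Tet1* and *Dnmt1* (y axis, log) against the summed CPM of 7 LT-HSC markers (x axis, log) in the 8 libraries, colored by genotype, with squares for the male and circles for the female label. The first 3 genes run from HET3 and WT3 at the lower left to WT1, WT2 and KO1 at the upper right, whereas *Dnmt1* stays between 130 and 164 CPM.

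The order of the libraries in *Dnmt3a*, *Dnmt3b* and *Tet1* was that of the LT-HSC marker sum in its 5 lowest places (HET3, WT3, HET2, HET1 and KO2). In the KO comparison all 7 LT-HSC markers were higher at an unadjusted *p*-value under 0.05, and none passed the adjusted threshold. None of the 8 hepatocyte, 8 erythroid or 6 macrophage markers reached the unadjusted level in either direction. The hepatocyte sum was 49.8 to 299 CPM in KO, 52.9 to 1483 CPM in WT and 145 to 753 CPM in HET, and the erythroid sum was 646 to 2873, 1139 to 2660 and 2930 to 14169 CPM. Of the 6 megakaryocyte and the 6 endothelial markers 2 each were higher, with sums of 133 to 1079 and 77.3 to 154 CPM in KO, 67.3 to 1315 and 12.1 to 161 CPM in WT, and 23.7 to 449 and 2.67 to 54.1 CPM in HET. Of 8 neutrophil and monocyte markers 1 was lower (405 to 899 CPM in KO, 667 to 1098 in WT, 156 to 814 in HET), and of 4 lymphoid markers 1 was higher, at sums of at most 7.01 CPM. *Cd48*, whose product was used to exclude cells, had 45.8 to 89.1 CPM in all libraries. The part of these levels in the KO values of *Dnmt3a*, *Dnmt3b* and *Tet1* was not tested.

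Finally, genes that work with these enzymes were examined. In none of the 7 lists did a gene pass the adjusted threshold in the KO comparison, so that the counts below are at an unadjusted *p*-value under 0.05, where 15.7% of all genes were higher and 9.48% lower. Of the 12 partners in maintenance and *de novo* methylation, 3 were higher and 2 lower, with a median log2 fold change of -0.05 against 0.13 for all genes. *Uhrf2*, the paralog of *Uhrf1*, was at 0.71 ± 0.18 (SE), whereas *Pcna*, the sliding clamp that recruits DNMT1 to replication forks, and *Usp7*, a deubiquitinase that stabilizes DNMT1, were at -0.85 ± 0.29 and -0.56 ± 0.20. *Pcna* had 110, 95.0 and 159 CPM in the WT samples, 174, 222 and 237 CPM in the HET samples and 102 and 126 CPM in the KO samples. Without WT3 and HET3 *Pcna* was the only gene of the list still at that level, with -0.99.

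Of the 13 genes of TET partners and cofactor supply, 3 were higher and 3 lower (median 0.35). *Cxxc5*, a CXXC-domain protein that can recruit TET2, was at 2.42 ± 0.71, with 134, 142 and 14.7 CPM in the WT samples, 64.8, 42.4 and 5.16 CPM in the HET samples and 125 and 97.1 CPM in the KO samples. Its libraries lay in nearly the same order as those of *Tet1*. It was at 1.36 without WT3 and HET3, the only gene of the list still at the unadjusted level. *Ogt*, the O-GlcNAc transferase that binds TET proteins, was at 0.76 ± 0.23, and *Idh3a*, a subunit of the mitochondrial enzyme that makes 2-oxoglutarate, was at -1.11 ± 0.37. Of 15 tested genes of base excision and demethylation repair, 6 were higher and 2 lower (median 0.28). *Apobec1*, a cytidine deaminase, *Neil3* and *Mbd4*, both DNA glycosylases, were at 1.31 ± 0.36, 1.01 ± 0.28 and 0.70 ± 0.19. Without WT3 and HET3 none of the 15 was at that level, against 4.07% of genes higher and 1.02% lower.

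Of 8 genes of the methyl-CpG reader families, not all of which need bind methylated DNA, 2 were higher and 1 lower (median 0.32). *Mbd6* was at 0.98 ± 0.36, *Zbtb4* at 1.90 ± 0.79 and *Mbd2* at -0.98 ± 0.41, and none was at that level without WT3 and HET3. Of the 13 genes of the S-adenosylmethionine cycle none was higher and 2 were lower (median -0.59), with *Mat2b*, the regulatory subunit of methionine adenosyltransferase, at -0.59 ± 0.18, *Mtap*, the enzyme of methionine salvage, at -0.45 ± 0.20 and *Mat2a*, the catalytic subunit, at -0.85 ± 0.37 and just outside that level. Of the 19 S-phase genes none was higher and 3 were lower (median -0.36): *Ccna2* at -0.90 ± 0.34, *Cdc6* at -0.85 ± 0.34 and *Rrm2* at -1.06 ± 0.44. In the female samples alone 11 of the 19 and 7 of the 13 were lower, against 12.3% of all genes, and without WT3 and HET3 none of the 19 and 1 of the 13.

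**Figure D5:**
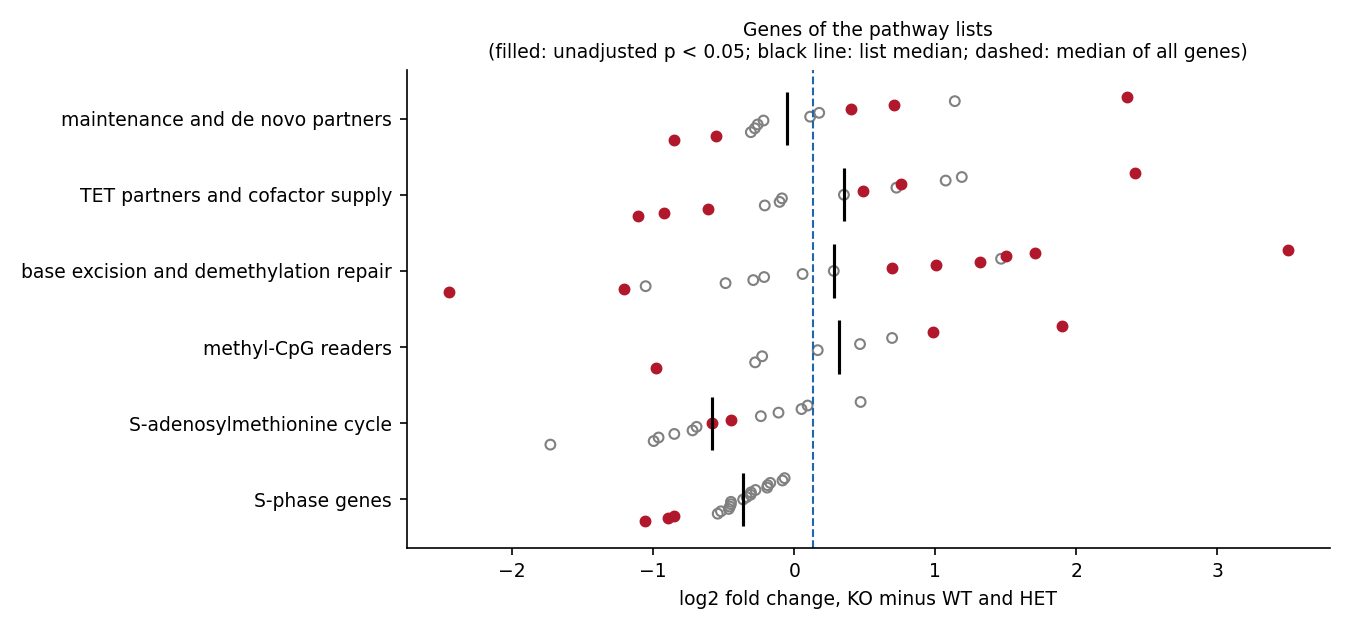
Log2 fold change of KO against WT and HET (x axis) for the genes of 6 lists (y axis), with filled points for an unadjusted *p*-value under 0.05, a black line at each list's median and a dashed line at the median of all genes (0.13). The medians run from -0.59 for the S-adenosylmethionine cycle to 0.35 for the TET partners and cofactor supply.

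Of 12 germline genes that promoter methylation is known to silence in somatic cells, 7 had enough reads to be tested, and 2 of these were higher in KO. *Ddx4*, an RNA helicase of germ cells, had 76.8, 41.1 and 8.49 CPM in WT1, WT2 and WT3, 33.5, 20.9 and 2.49 CPM in HET1, HET2 and HET3, and 60.1 and 29.9 CPM in KO1 and KO2. Its fitted KO value was 2.08 ± 0.74 (log2). It was highest in WT1, and KO overlapped WT and HET. *Slc25a31* had 1.87 and 1.17 CPM in WT1 and WT2, 0.425 CPM in HET1, 1.42 and 0.0492 CPM in KO1 and KO2, and no read in the other 3 libraries. *Sycp1* was at most 0.851 CPM in any library and had no read in KO. Without WT3 and HET3 none of the 7 was at the unadjusted level.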

How the data were processed

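The methods state that reads were trimmed with Trim Galore 0.6.6, aligned to GRCm38 with STAR 2.7.8 and counted per Ensembl gene from unique alignments, and the submitters' processing notes name these tools and DESeq2 1.38.3. The deposited values are raw counts per gene, not normalized. The strand column used is not given in the sources used here, so reads of overlapping antisense genes cannot be separated, and unique alignment lowers genes with near-identical copies. A deposited table of normalized values was not used here. The cDNA was amplified by PCR without molecular identifiers, so floors cover counting error only.

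Genes with at least 10 reads over the 8 samples were kept. Counts were scaled by TMM and tested with the edgeR 4.0.16 quasi-likelihood test (legacy form) in R 4.3.3, with sex and genotype in the model, WT and HET pooled, and Benjamini-Hochberg adjustment. DESeq2 1.42.0 with and without apeglm 1.24.0 was the alternative, with other scalings, filters, references, a replicate block and each sample left out. The fit without WT3 and HET3 was added after the data were seen. Exact two-sided permutation tests used log2 CPM with a prior count of 2. The labels do not tie replicates to embryos or litters, so *p*-values measure the spread between these samples. Replicates differed by more than sampling noise (chi-square per gene 18.9 or more in every pair of 1 group). The fits were tested on simulated counts with 1 replicate spread for all genes, no label effect and no libraries such as WT3 and HET3. That test therefore does not cover the differences between these samples. Symbols, positions and exon lengths are those of GENCODE M21 on GRCm38.

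Besides the 8 members and *Nfkbia*, the text names the 3 genes with the lowest KO *p*-value in each of 7 lists and the 2 genes nearest in profile to each member. *Ly6a*, *Fgb*, *Ttr* and *Serpina1a* were named for having no read in a library. The members and lists were chosen with earlier results of these data known. Some list genes are not reported here and were left out of the counts and sums.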

Additional observations from a re-analysis of the deposited data

Results flagged for a closer look

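*Dnmt3l* in WT2 stood far from the other 5 WT and HET samples, at 0.418 CPM (10 reads) against 0 to 0.0593 CPM. The gap to the next sample was 0.858 of the whole range, above the critical value of 0.625 for 6 samples. Of 9 genes examined in this way, the 8 members and *Nfkbia*, it was the only such value. The critical value lets about 1 in 20 genes pass by chance if values are normally distributed. *Dnmt3l*, with no read in most libraries, is not, so that this rate does not apply to it.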

How the results depend on the processing

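The number of genes called in KO moved from 0 to 1825 with DESeq2, 1463 with apeglm, 1 with the version 4 form of edgeR, 1106 without a filter and 706 with WT alone as the reference, and from 0 to 703 when samples were left out in turn. The number called in HET moved from 0 to 52 with DESeq2, 131 without a filter and 1929 without WT3 and HET3, and from 0 to 76 when samples were left out. The number called in males moved from 2 to 1820 with DESeq2, 5 with the version 4 form, 2154 without a filter, 0 with 10 reads in every sample, 0 with the replicate block and 34 without WT3 and HET3, and from 0 to 2914 when samples were left out (2914 without HET2, 1404 without HET1). *Dnmt3a*, *Dnmt3b* and *Tet1* kept a positive KO value under all 21 alternatives. The cause of these differences was not tested.

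Reversed values were near 0 in the fit as reported, except in HET. *Tet3* in KO turned to 0.18 with library size only and ranged from -0.264 to 0.0703 with samples left out (0.0048 without HET2, 0.0703 without KO1). *Tet2* in HET turned to -0.0053 with DESeq2, -0.0091 with RLE, -0.093 with library size only, -0.026 with 10 reads in every sample, -0.23 without sex and -0.020 with the replicate block, and *Dnmt1* in HET to -0.043 with library size only and -0.00042 without sex. With samples left out, HET values ranged from -0.14 to 0.15 for *Tet2*, -0.0704 to 0.181 for *Dnmt1*, -1.14 to 0.0861 for *Dnmt3a*, -0.71 to 0.38 for *Dnmt3b* and -0.88 to 0.12 for *Tet1*, each reversing without HET1. *Tet3* in males turned to -0.024 with the replicate block, -0.015 without WT3 and HET3 and ranged from -0.11 to 0.12 with samples left out.

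Deviations from the group means were correlated between samples. Same-numbered WT and HET samples had 0.293 (WT1 with HET1), 0.198 (WT2 with HET2) and 0.59 (WT3 with HET3). Differently numbered samples reached 0.403 (WT2 with HET1). The deviations of the 2 KO samples mirror each other by construction, for example 0.346 in WT2 with KO1 and -0.346 in WT2 with KO2. Correlations with KO therefore cannot show whether the numbers are pairs. The numbers were not taken as pairs, since the labels do not tie them to litters. The replicate block gave 0 calls in all 3 comparisons. *Dnmt3l* had too few reads for a fold change under any alternative. A prior count of 0.5 moved none of the tested differences in mean log2 CPM by more than the spread between replicates. At this depth a gene under 3 reads, or 0.138 to 0.168 CPM before TMM scaling, cannot be separated from 0.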
